A study of Rattus norvegicus with 16 samples.

Results

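Cyclin D1 (Ccnd1), cyclin E1 (Ccne1) and the replication clamp Pcna are 3 genes of the step from G1 into S phase. They were measured by 6 probe sets, 2 for each gene, among 972 probe sets for genes on the array, and by name they are 3 of 549 singly named genes. The members were chosen by gene symbol in the platform annotation, and the choice was made with their treatment differences on these same arrays in view. The differences between the treatment groups are therefore given as description, with their intervals and without a test of the members.

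The cells were NG108, which the labels call rat neuronal and which is known as a hybrid of a mouse neuroblastoma and a rat glioma. One group of 8 samples received 0.25% DMSO, the solvent control, and the other group of 8 received mefloquine, an antimalarial drug with neurological side effects, at 4400 ng/ml. Both exposures lasted 2 hours, and 10 µg of total RNA went onto each chip. The labels do not say whether the mefloquine samples also held DMSO or whether samples of a group came from separate cultures, so the spread between them may be technical. The line is a single hybrid line, the probes are for rat sequences, and how far mouse transcripts reach them was not tested. Of 12 neuronal markers none had a probe set here, so the neuronal label could not be checked, while 2 of 13 glial markers did (Vim and Clu), and both were above the floor on all 16 arrays.

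In G1, mitogen signals raise cyclin D1, which binds Cdk4 and Cdk6 and begins to phosphorylate the retinoblastoma protein. Release of E2F factors then raises cyclin E1, which activates Cdk2 and drives entry into S phase, and raises the replication genes, Pcna among them. Pcna forms the sliding clamp that holds DNA polymerase on its template and also serves in repair. Cyclin D1 messenger RNA is short-lived and follows growth signals, whereas Pcna is abundant in any dividing line.

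In the RefSeq gene table, on the rat build GRCr8, Ccnd1 lies on chromosome 1 from 209518288 to 209527986, Ccne1 on chromosome 1 from 99918672 to 99927986, and Pcna on chromosome 3 from 139951948 to 139955820. The table also names 3 Pcna pseudogenes, and whether the Pcna probes read transcripts of such copies was not tested. The stretches just before the transcription starts of Ccne1 and Pcna are shown because both genes are textbook targets of the E2F step. They are RefSeq sequences on the minus strand, 173 bases at chr1:99927987-99928159 for Ccne1 and 250 bases at chr3:139955821-139956070 for Pcna, written 5′ to 3′. Capitals mark matches on either strand to the GC box (GGGCGG), the CCAAT box (CCAAT) and the core of a cyclic AMP response element (TGACG), and no 2 matches overlapped.
Ccne1: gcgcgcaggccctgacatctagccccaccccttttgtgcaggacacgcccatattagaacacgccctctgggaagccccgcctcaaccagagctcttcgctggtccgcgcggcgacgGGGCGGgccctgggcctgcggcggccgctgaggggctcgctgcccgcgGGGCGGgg
Pcna: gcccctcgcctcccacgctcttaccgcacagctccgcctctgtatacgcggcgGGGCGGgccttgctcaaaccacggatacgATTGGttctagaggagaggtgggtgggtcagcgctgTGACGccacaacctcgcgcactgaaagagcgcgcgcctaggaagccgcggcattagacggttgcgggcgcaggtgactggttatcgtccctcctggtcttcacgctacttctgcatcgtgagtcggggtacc

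The Ccne1 stretch held 2 GC boxes and was 73.4% G and C. The median was 50.3% over 33469 RefSeq stretches of 173 bases, of which 19.9% held a GC box. Those were the first 173 bases of each entry and, unlike that of Ccne1, were not cut at their gene's outermost start. The Pcna stretch held 1 GC box, 1 CCAAT box and 1 TGACG, and was 63.6% G and C against a median of 51.2%. Among all RefSeq stretches of 250 bases, 30.5% held a GC box, 34.0% a CCAAT box and 18.2% TGACG. The E2F letters TTTCCCGC, TTTGGCGC, TTTGCCGC and TTTCGCGC were in neither stretch (1.12% of all stretches of 173 bases and 1.73% of those of 250 held one), nor were those of the AP-1 site, TGANTCA (4.47% and 6.34%). These are matches of letters and not binding sites.

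Across the 16 arrays the median intensity of gene probe sets lay between 461 and 665, and between 495 and 552 probe sets per array exceeded the floor of 426.5 intensity units under which values were not distinguished. All 6 member probe sets exceeded that floor on all 16 arrays. DMSO control 3 stood apart, with a 3' over 5' ratio of 4.62 for GAPDH and 21.3 for beta-actin, a sign of RNA quality, where the other arrays ranged from 1.02 to 1.48 and from 1.31 to 2.67. Mefloquine 1 and 2 had the next lowest median correlations with the other arrays, 0.901 and 0.913, against 0.855 for DMSO control 3. Spike-in control probe sets averaged 9.63 to 10.54 (log2) on arrays other than these 3. They averaged 12.54, 11.86 and 11.28 on DMSO control 3, mefloquine 1 and mefloquine 2. Values without these arrays are given beside the results below, because several extremes of the members fall on them.

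By the probe set D14014_at, cyclin D1 ranged from 1245 to 2747 in DMSO cells, with a median of 2183, and from 1835 to 3314 in mefloquine cells, with a median of 2734. The groups overlapped: 4 of 8 mefloquine arrays exceeded every DMSO array, 3 of 8 DMSO arrays lay below the lowest mefloquine array, and 7 of 8 mefloquine arrays exceeded the DMSO median. The means were 2126 ± 589 and 2751 ± 492 (SD, n = 8 each), a 1.32-fold ratio of geometric means. On the log2 scale the difference, mefloquine minus DMSO, was 0.40 ± 0.18 (SE) with a 95% interval from 0.02 to 0.78. The lowest DMSO value was that of DMSO control 3 and the 2 highest mefloquine values those of mefloquine 1 and 2. Without these 3 arrays the difference was 0.21, with an interval from -0.15 to 0.56. Without DMSO control 3 alone it was 0.30, with an interval from -0.04 to 0.64, so that both intervals span 0.

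The other cyclin D1 probe set, D14014_g_at, gave a different picture. It ranged from 994 to 5446 in DMSO cells (median 2036) and from 1468 to 2744 in mefloquine cells (median 2153). All 8 mefloquine values fell inside the DMSO range. The top DMSO value, on DMSO control 3, lay far above the next one, 2459. The means were 2324 ± 1347 and 2151 ± 404 (SD, n = 8 each), and the log2 difference was 0.03 ± 0.25 (SE; 95% interval -0.51 to 0.56). Without DMSO control 3 it was 0.23, with an interval from -0.17 to 0.62, which also spans 0. Without DMSO control 8, the lowest DMSO array at 994, it was -0.12.

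Cyclin E1 by its brighter probe set, D14015_at, ranged from 1412 to 2924 in DMSO cells (median 2264) and from 904 to 2846 in mefloquine cells (median 2248). The medians were close, and 7 of 8 mefloquine arrays lay inside the DMSO range. Mefloquine 2 was the exception, at 904, where the next lowest mefloquine array was at 1816. The means were 2286 ± 506 and 2164 ± 626 (SD, n = 8 each) and the log2 difference was -0.12 ± 0.21 (SE; 95% interval -0.57 to 0.34). Without mefloquine 2 its sign turned, to 0.05, and without all 3 arrays that stood apart it was -0.04. Without DMSO control 3 alone, the lowest DMSO array, it was -0.21, with an interval from -0.65 to 0.23.

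The dimmer cyclin E1 probe set, D14015_g_at, ranged from 975 to 1406 in DMSO cells (median 1056) and from 738 to 1344 in mefloquine cells (median 953). The mefloquine arrays were more spread than the DMSO arrays, and 4 of 8 fell below the lowest DMSO array. The means were 1109 ± 146 and 1015 ± 258 (SD, n = 8 each), with coefficients of variation of 13.2% and 25.4%. The log2 difference was -0.16 ± 0.15 (SE; 95% interval -0.47 to 0.16), and without DMSO control 3 it was -0.17. Without the 3 arrays that stood apart it was -0.31, with an interval from -0.61 to -0.01. That step left out mefloquine 1 and 2, at 1284 and 1344 among the highest mefloquine values, which by itself lowers the difference. Mefloquine 2, the lowest array by the brighter probe set, was the highest mefloquine array by this one, at 1344.

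Pcna by M24604_at ranged from 6394 to 12408 in DMSO cells (median 8364) and from 7541 to 13246 in mefloquine cells (median 8909). Mefloquine 1, 2 and 3, at 13021, 13217 and 13246, lay above every DMSO array, and the other mefloquine arrays lay at 9022 or below, inside the DMSO range. Among the DMSO arrays, DMSO control 3 and 4, at 12408 and 11424, were likewise above the remaining ones, the next being at 8613. The means were 8932 ± 1980 and 10116 ± 2572 (SD, n = 8 each), and the log2 difference was 0.17 ± 0.17 (SE; 95% interval -0.18 to 0.52). Without the 3 arrays that stood apart it was 0.10. Without DMSO control 3 alone, the highest DMSO array, it was 0.24, with an interval from -0.10 to 0.58.

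By M24604_g_at, Pcna ranged from 4687 to 9874 in DMSO cells (median 8099) and from 6408 to 9975 in mefloquine cells (median 7426). The group means almost coincided, at 7702 ± 1644 and 7577 ± 1089 (SD, n = 8 each), and 7 of 8 mefloquine arrays lay inside the DMSO range. The log2 difference was -0.002 ± 0.15 (SE; 95% interval -0.31 to 0.31). DMSO control 3 was the lowest of all 16 arrays on this probe set, at 4687, and the highest DMSO array on the other one. Without DMSO control 3 the difference was -0.10, with an interval from -0.34 to 0.14, and without all 3 arrays that stood apart it was -0.05.

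**Figure D1:**
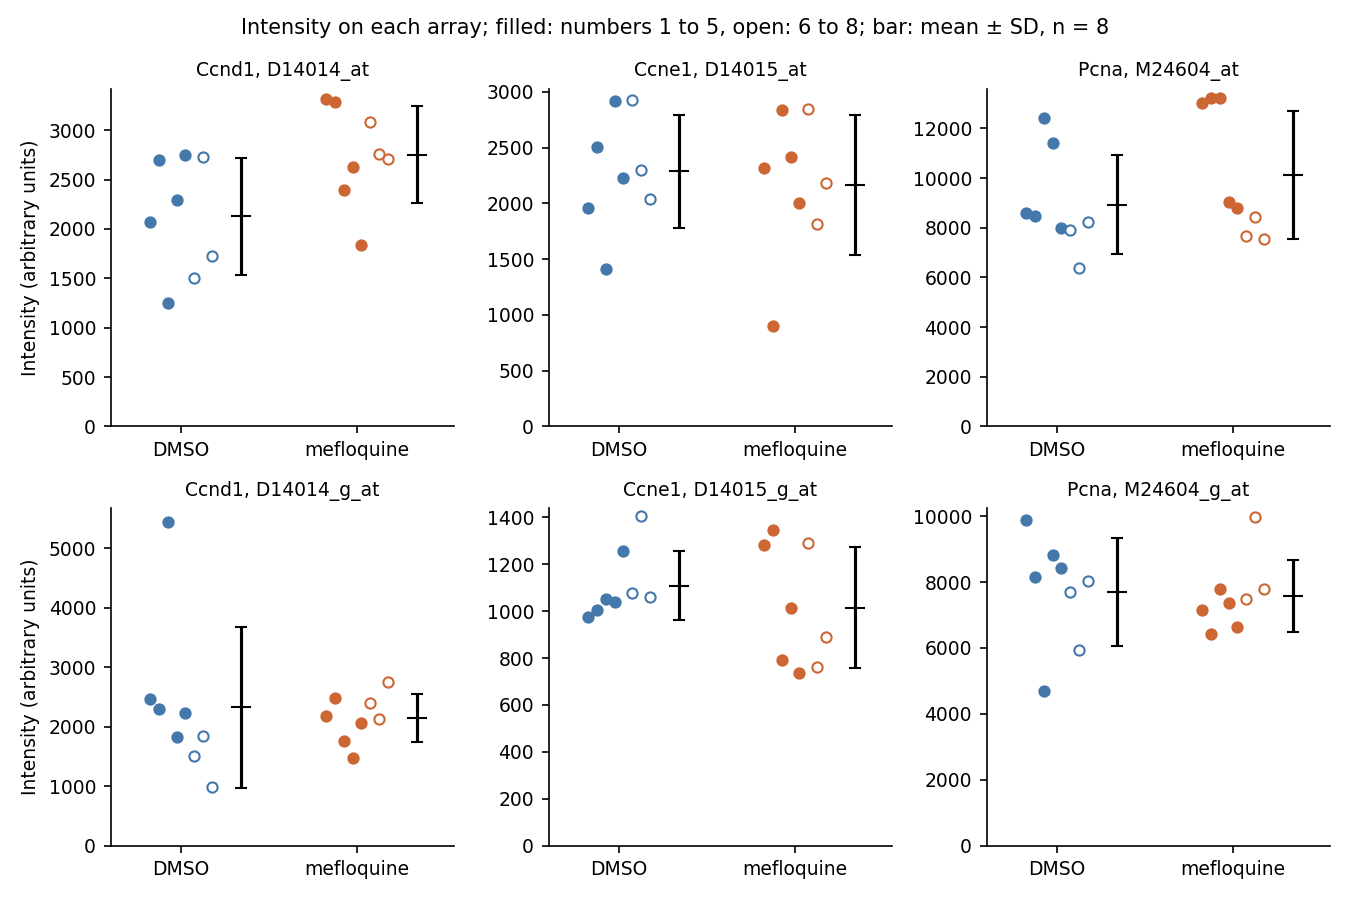
Intensity (linear scale, arbitrary units) of the 2 probe sets of Ccnd1, Ccne1 and Pcna on each of the 8 DMSO and 8 mefloquine arrays, with arrays numbered 1 to 5 filled, those numbered 6 to 8 open, and the mean ± SD beside each group. The groups overlap on all 6 probe sets; DMSO control 3 is the single point at 5446 for D14014_g_at, and mefloquine 2 the one at 904 for D14015_at.

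In the fit over all tested probe sets, 0 of the 6 member probe sets passed limma's test at a Benjamini-Hochberg adjusted p under 0.05, and 7 of 545 probe sets did (1.28%). At an unadjusted p under 0.05 there was 1 of the 6, cyclin D1 by D14014_at, and 23 of 545 (4.22%). In 0 of the 6 were the arrays of the groups fully apart, which held for 3 of 545 (0.550%). Because the members were chosen with this contrast in view, nothing is read from these counts. In this fit over all arrays, a 2-fold change in either direction lay outside the 95% interval of each of the 6 differences. The intervals describe single probe sets in a contrast that was in view, and the spread between samples may be technical. They are no test that a gene's change is below 2-fold. Within sets of array numbers a 2-fold change lay inside some of the cyclin D1 intervals. In numbers 6 to 8 the intervals reached up to 1.12 (log2) by D14014_at and 1.36 by D14014_g_at. In numbers 1 to 5 that of D14014_g_at reached down to -1.04, or to -0.54 without DMSO control 3. The cyclin E1 and Pcna intervals in these sets did not reach a 2-fold change.

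The labels number the samples 1 to 8 in each group, and earlier work on these data had seen that arrays numbered 1 to 5 differ from those numbered 6 to 8. What the numbers stand for is not given. Within numbers 6 to 8 both cyclin D1 probe sets were higher with mefloquine. By D14014_at the DMSO arrays were at 1507, 2726 and 1722 and the mefloquine arrays at 3087, 2763 and 2705, so the groups overlapped only through DMSO control 7. By D14014_g_at the DMSO arrays were at 1507, 1841 and 994 and the mefloquine arrays at 2394, 2124 and 2744, with no overlap. The share of all probe sets whose groups lay apart on these few arrays was not counted, so nothing is read from it. The log2 differences were 0.57 ± 0.23 and 0.78 ± 0.24 (SE, n = 3 each), or 1.48-fold and 1.72-fold. DMSO control 8 and mefloquine 8 were the lowest and highest of these arrays by D14014_g_at. Their 3' over 5' ratios for beta-actin were 2.67 and 2.58. Differences within numbers 6 to 8 without these arrays were not computed. Within numbers 1 to 5 the same probe sets differed by 0.30 ± 0.25 and -0.42 ± 0.28 (SE, n = 5 each), and without DMSO control 3 by 0.11 ± 0.19 and -0.16 ± 0.17.

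Cyclin E1 was at -0.13 and -0.10 by D14015_at and at -0.08 and -0.29 by D14015_g_at, in numbers 1 to 5 and 6 to 8. Without DMSO control 3, D14015_at was at -0.28 ± 0.31 (log2, SE) in numbers 1 to 5. Pcna was at 0.23 and 0.07 by M24604_at, and at -0.13 and 0.22 by M24604_g_at, where the sign turned. Without DMSO control 3 the Pcna probe sets in numbers 1 to 5 differed in opposite directions, by 0.32 ± 0.18 (SE; 95% interval -0.09 to 0.73) and -0.32 ± 0.11 (SE; 95% interval -0.57 to -0.06). Each was then farther from 0 than either cyclin D1 value in the same arrays. None of the 6 probe sets passed limma's test within numbers 1 to 5 (6 of 553 probe sets did, 1.08%) or within numbers 6 to 8 (1 of 541, 0.185%). At an unadjusted p under 0.05 there were 0 of 6 in numbers 1 to 5 (29 of 553, 5.24%) and 2 of 6 in numbers 6 to 8 (39 of 541, 7.21%), the latter being the pair for cyclin D1. As over all arrays, nothing is read from these counts of members.

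For cyclin D1 by D14014_g_at the treatment difference in numbers 6 to 8 minus that in numbers 1 to 5 was 1.20 ± 0.43 (log2, SE), and 0.94 ± 0.30 without DMSO control 3. It was not computed without DMSO control 8, the lowest of all arrays by this probe set. For Pcna by M24604_g_at this difference of differences was 0.35 ± 0.30, and 0.54 ± 0.20 without DMSO control 3. These values are description, since both the members and the sets of numbers were picked with these arrays in view. Fitted as an interaction in limma over all probe sets, 0 of 545 (0%) passed after adjustment and 23 of 545 (4.22%) had an unadjusted p under 0.05.

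**Figure D2:**
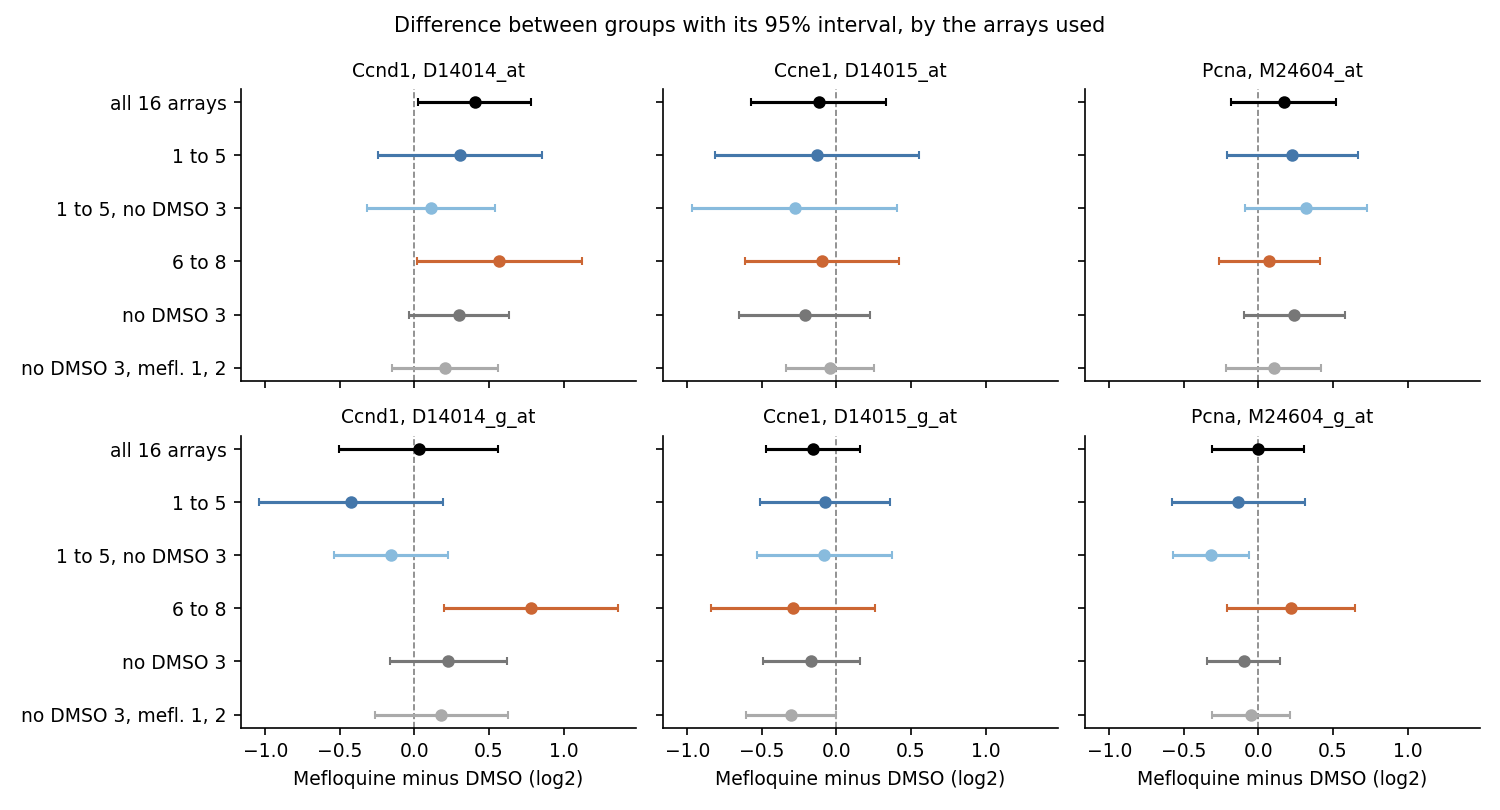
Difference between mefloquine and DMSO (log2, points) with its 95% interval (bars) for each of the 6 probe sets, from all 16 arrays, from arrays numbered 1 to 5 with and without DMSO control 3, from those numbered 6 to 8, and without the arrays that stood apart. Both cyclin D1 panels lie to the right of 0 for numbers 6 to 8, at 0.57 and 0.78. Over all 16 arrays only D14014_at does, with an interval from 0.02 to 0.78. Without DMSO control 3 that interval runs from -0.04 to 0.64. To the left of 0 lies Pcna by M24604_g_at in numbers 1 to 5 without DMSO control 3 (-0.57 to -0.06). So does cyclin E1 by D14015_g_at without the 3 arrays that stood apart (-0.61 to -0.01).

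Apart from treatment, levels were also compared between the sets of array numbers, and the 6 probe sets were unlike in this. Pcna by M24604_at was lower on arrays numbered 6 to 8 than on those numbered 1 to 5, by -0.36 in DMSO cells and -0.52 in mefloquine cells, and in a model with both terms by -0.44 ± 0.14 (log2, SE). It was -0.40 without DMSO control 3. The other Pcna probe set differed by 0.06 ± 0.15 in the same model, and by -0.02 without DMSO control 3. Cyclin D1 by D14014_g_at differed by -0.91 in DMSO cells, or -0.64 without DMSO control 3, and by 0.30 in mefloquine cells. In the model with both terms, cyclin D1 differed by -0.30 ± 0.26 by D14014_g_at and by -0.02 ± 0.19 by D14014_at. Cyclin E1 differed there by 0.18 ± 0.22 by D14015_at and by 0.04 ± 0.16 by D14015_g_at. Since these sets of numbers were noticed on the same arrays, the values are description.

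Each gene had a pair of probe sets, so the pair can be set against each other on the same array, a measure that did not enter the choice of members. Over the 16 arrays, after each group's mean was subtracted, the 2 cyclin D1 probe sets correlated at Pearson's r = -0.12 (permutation p = 0.667, Benjamini-Hochberg adjusted 0.833) and Spearman's rho = 0.20 (permutation p = 0.465, adjusted 0.961). The 2 cyclin E1 probe sets had r = -0.18 (permutation p = 0.531, adjusted 0.724) and rho = 0.12 (permutation p = 0.651, adjusted 0.961). The 2 Pcna probe sets had r = -0.25 (permutation p = 0.354, adjusted 0.590) and rho = -0.06 (permutation p = 0.839, adjusted 0.961). No pair of probe sets for one gene was thus seen to vary together over all arrays. Adjustment ran over all 15 pairs of the 6 probe sets, of which 0 passed.

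A few arrays decided the sign of these correlations. Leaving out the 2 arrays farthest from the median turned cyclin D1 to r = 0.62 (without DMSO control 3 and mefloquine 5), cyclin E1 to 0.30 (without DMSO control 3 and mefloquine 2) and Pcna to 0.05 (without DMSO control 3 and mefloquine 3). Without DMSO control 3 alone, cyclin D1 had r = 0.54 (permutation p = 0.0352, adjusted 0.176, n = 15). Within numbers 1 to 5 the values were -0.55 for cyclin D1, -0.45 for cyclin E1 and -0.42 for Pcna (permutation p = 0.0960, 0.195 and 0.239, n = 10), and without DMSO control 3 they were 0.28, -0.51 and 0.12, so that the sign for cyclin D1 and Pcna rested on that array. Within numbers 6 to 8 they were 0.52, 0.62 and 0.93 (permutation p = 0.278, 0.164 and 0.0139, n = 6; lowest adjusted p over the 15 pairs 0.130). These p values are approximate, because arrays were reordered across both groups after each group's mean was subtracted.

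The log2 ratio of the 2 probe sets shows the same on each array. For cyclin D1, D14014_at over D14014_g_at, it was -2.13 on DMSO control 3 and between -0.25 and 0.79 on the other DMSO arrays, against -0.16 to 0.84 on mefloquine arrays. For Pcna, M24604_at over M24604_g_at, it was 1.40 on DMSO control 3, between -0.20 and 0.38 on the other DMSO arrays and between -0.24 and 1.04 on mefloquine arrays. For cyclin E1, D14015_at over D14015_g_at, it was -0.57 on mefloquine 2, the lowest of all arrays. Mefloquine 2 had a 3' over 5' ratio of 1.27 for GAPDH and of 1.95 for beta-actin, the latter exceeded by DMSO control 3, DMSO control 8 and mefloquine 8, and the third lowest median correlation with the other arrays. The part of RNA quality in the ratios of probe sets was not tested.

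**Figure D3:**
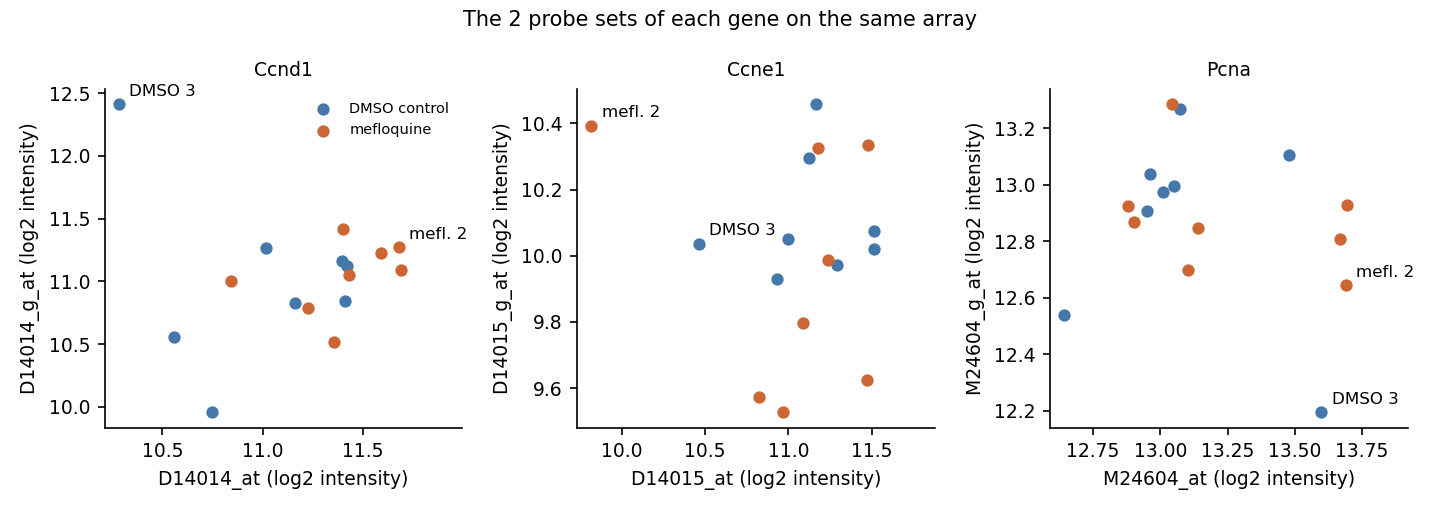
The 2 probe sets of each gene plotted against each other on the log2 intensity scale, 1 point per array, DMSO in blue and mefloquine in orange. DMSO control 3 lies far to the upper left for Ccnd1 and at the lower right for Pcna, and mefloquine 2 lies at the far left for Ccne1; without DMSO control 3 the Ccnd1 values, less their group means, have r = 0.54.

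Between genes, the strongest of the 15 pairs over all arrays was cyclin D1 by D14014_at with cyclin E1 by D14015_g_at, with r = 0.56 (permutation p = 0.0255, adjusted 0.382) and rho = 0.49 (permutation p = 0.0571, adjusted 0.504). It was 0.62 in numbers 1 to 5, 0.65 in numbers 6 to 8 and 0.53 without the 2 farthest arrays, and it did not pass after adjustment. Pcna by M24604_at correlated with cyclin D1 by D14014_at at -0.17 and with cyclin E1 by D14015_at at -0.32 (permutation p = 0.519 and 0.225, adjusted 0.724 and 0.481).

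The genes whose deviations over the 16 arrays were most like each member were named by a fixed rule among 457 singly named tested probe sets. For Pcna by M24604_at they were Ergic1 (r = 0.85), Ndufab1 (0.85) and Zfp36l1 (0.84), and without DMSO control 3 these stayed at 0.86, 0.85 and 0.81. For cyclin E1 by D14015_at they were Rfc4, a subunit of the loader that places the Pcna clamp (0.77), Cyp2c7 (0.76) and Aurkaip1 (0.74). Without DMSO control 3 these were at 0.75, 0.70 and 0.77. Values without mefloquine 2, the array far below the others by D14015_at, were not computed. For cyclin D1 by D14014_at they were Hyou1 (0.69), Cyp2c22 (0.68) and Hras (0.65), which were at 0.59, 0.55 and 0.44 without DMSO control 3. These are the highest values among many compared and the arrays share any effect of quality or number, so they are description only.

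Around the members, 105 other genes of the cell cycle were listed, from cyclins and kinases to replication, mitosis and repair. Of these 33 had a probe set and 21 were tested. In the fit over all probe sets 0 rose, 0 fell and 21 did not pass limma's test, and 0 had an unadjusted p under 0.05. Their median log2 difference was -0.03, beside -0.01 over all 545 tested probe sets, and they ranged from -0.34 to 0.15, each gene taken by its brightest probe set.

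Among the G1 and S cyclins and kinases, Ccnd3, a relative of cyclin D1, was at 2927 ± 516 in DMSO and 2714 ± 336 in mefloquine cells (SD, n = 8 each), and differed by -0.10 ± 0.12 on the log2 scale (SE), or by -0.20 by its other probe set. Cdk2, the kinase partner of cyclin E1, differed by -0.10 ± 0.25 and Cdk7, which activates such kinases, by 0.00 ± 0.17. Cyclin D2 (Ccnd2) was above the floor on 0 of 16 arrays.

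The inhibitors of these kinases were mostly dim. Cdkn1b (p27) and Cdkn2b (p15) were above the floor on 0 of 16 arrays. Cdkn1a (p21), which binds both cyclin-kinase complexes and Pcna, was above the floor on 3 of 8 DMSO and 1 of 8 mefloquine arrays, with a highest value of 1463 on DMSO control 8, and was not tested. Mdm2, which restrains p53, differed by 0.04 ± 0.26 (log2, SE) by its brighter probe set and by 0.45 ± 0.31 by the other. The damage-response gene Gadd45a differed by -0.03 ± 0.47 by its brightest probe set, and by 0.24 ± 0.13 and 0.01 ± 0.15 by the others.

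Of the transcription factors that act upstream, Mycn differed by -0.27 ± 0.21 (log2, SE; 1940 ± 487 against 1586 ± 401 intensity, SD, n = 8 each) and Myc by -0.02 ± 0.19. Among replication genes that work beside Pcna, the flap nuclease Fen1 differed by -0.27 ± 0.19, the polymerase subunit Pold1 by -0.19 ± 0.25 and topoisomerase Top1 by -0.09 ± 0.18. Pold1 was at -0.49 in numbers 1 to 5 and 0.30 in numbers 6 to 8.

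Later in the cycle, the mitotic brake Wee1 differed by -0.16 ± 0.18 (log2, SE), the mitotic kinase Cdk1 by 0.14 ± 0.26 and the phosphatase Cdc25b, above the floor on 8 of 16 arrays, by 0.12 ± 0.45. Of the repair genes, Polb, the gap-filling polymerase, differed by -0.34 ± 0.28, the methyl-transferase Mgmt by -0.12 ± 0.09 and the nuclease Apex1 by -0.07 ± 0.10. None of the genes in these paragraphs passed limma's test over all probe sets.

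**Figure D4:**
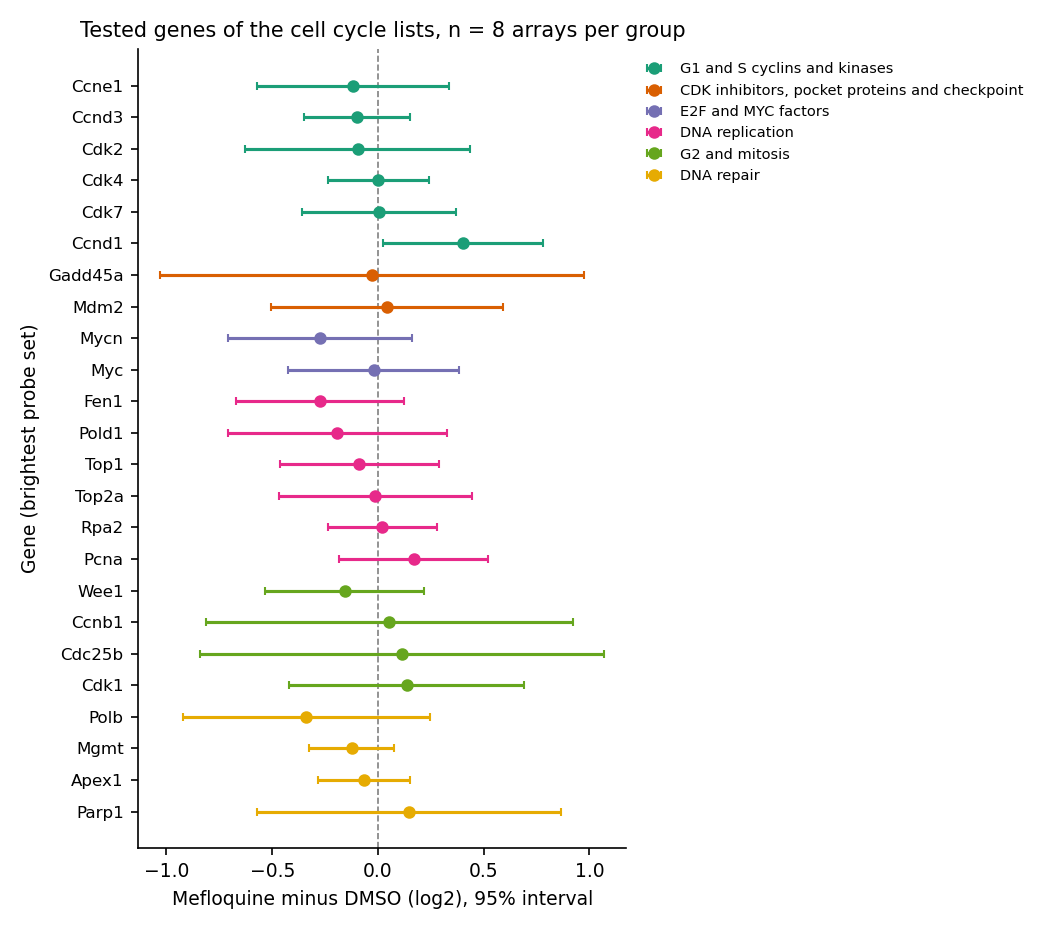
Difference between mefloquine and DMSO (log2, points) with its 95% interval (bars) for each of the 24 tested genes of the cell cycle lists, by its brightest probe set, coloured by list, n = 8 arrays per group. Ccnd1, chosen with this contrast in view, is at 0.40 with an interval from 0.02 to 0.78 by the probe set drawn, D14014_at. It is at 0.03 by its other probe set. Without DMSO control 3 the D14014_at interval runs from -0.04 to 0.64. The intervals of the other genes drawn include 0.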

How the data were processed

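The deposited values are linear microarray intensities, scaled by the authors with standard chip factors and otherwise untransformed, per the labels' protocols; no source used here names the software. Groups and numbers came from the sample titles. Values below the 25th percentile of positive values (426.5) were set to it and log2 was taken. Probe sets above this floor on at least 8 of 16 arrays were tested (545 of 972; 59 control probe sets left out) with limma 3.58.1 in R 4.3.3 (lmFit, eBayes), treatment being the only term, and Benjamini-Hochberg adjustment over all tested probe sets; steps were tested on simulated data. The number of arrays limits the precision. Genes of the 6 cell cycle lists entered by their brightest probe set, and up to 3 genes per list with the smallest p were named. Correlations used 100000 permutations, or all 720 orders for 6 arrays, two-sided. Arrays were reordered across both groups after each group's mean was subtracted, so these p values are approximate. The annotation gave 1 symbol to 821 probe sets, several to 38 and none to 113. The members and lists were chosen with earlier results of these data known. Alternatives were other scalings, floors, filters, variance models and array weights, a GAPDH ratio covariate, the replicate number or its range as a block, and arrays left out; the interaction without DMSO control 3 was added after seeing the data.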

Additional observations from a re-analysis of the deposited data

Results flagged for a closer look

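Dixon's test asked, for every member probe set and for the ratio of each gene's 2 probe sets, whether the top or bottom array of a treatment group lay far from the other 7. It did in 5 of 18 cases (27.8%), and by chance about 5% would. On DMSO control 3 the log2 ratio of the 2 probe sets was -2.13 for cyclin D1 (other DMSO arrays -0.25 to 0.79) and 1.40 for Pcna (-0.20 to 0.38). On mefloquine 2 cyclin E1 by D14015_at was at 9.82 on the log2 scale (other mefloquine arrays 10.83 to 11.47), and its ratio of probe sets was -0.57 (0.85 to 1.84). On mefloquine 7 Pcna by M24604_g_at was at 13.28 (12.65 to 12.93). The ratios use the same intensities as the probe sets, so these are not 5 separate signals.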

How the results depend on the processing

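Of 6 member probe sets, 0 passed limma's test under each of the 31 alternatives. For cyclin D1 by D14014_at the log2 difference ranged from 0.21 to 0.57 and kept its sign, as did cyclin E1 by D14015_g_at (-0.31 to -0.08) and Pcna by M24604_at (0.07 to 0.24). Cyclin D1 by D14014_g_at turned sign in 6 of 31, from -0.42 to 0.78 (the latter in numbers 6 to 8 alone, beyond the spread between replicates), cyclin E1 by D14015_at in 1 (up to 0.05, without mefloquine 2), and Pcna by M24604_g_at, near 0, in 12 (-0.13 to 0.22). With the replicate block the differences were the same (0.40 for D14014_at), and 8 probe sets passed in all instead of 7. The numbers are no shared animal or batch in the labels. Deviations of like-numbered arrays correlated above 0.1 in 7 of 8 number pairs. The values were 0.06 to 0.19 for numbers 1 to 4 and 0.45 to 0.59 for numbers 5 to 8. Of the 16 arrays, 4 correlated best with their own number, and whether like-numbered arrays are linked was not tested. Over all alternatives the probe sets called in the whole fit numbered between 1 (numbers 6 to 8 alone) and 8. It was 3 when every array had to exceed the floor, and 4 with quantile normalization, with either other floor, with the offset, or without DMSO control 2, 6, 7 or 8 or mefloquine 3 or 4; the cause was not tested.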
